A study of Mus musculus with 9 samples.

Results

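The mouse chemokines and chemokine receptors were taken here as every gene whose symbol begins with Ccl, Cxcl, Cx3cl, Ccr, Cxcr, Cx3cr or Ackr followed by a number, with 1 of the 57 such genes left out. They came to 56 of the 27179 genes in the deposited matrix, of which 35 were ligands, 17 were signalling receptors and 4 were atypical receptors (Ackr1 to Ackr4). RNA was measured in cells sorted from the fibrous tissue that forms around a tibial implant, 2 weeks after the implant was placed in mice. All animals had received tamoxifen and carried Lepr-CreERT, a tamoxifen-inducible Cre recombinase expressed from the leptin receptor gene Lepr, together with a Tdtomato reporter. The 4 control libraries came from Lepr-CreERT;Tdtomato mice, described as Cre-only littermates. The 5 knockout libraries (cKO) came from Lepr-CreERT;Tdtomato;Grem1fl/fl mice, in which both copies of Grem1 can be deleted in Cre-active cells; Grem1 encodes the secreted bone morphogenetic protein antagonist gremlin 1. The sorted cells were negative for lineage markers (Lin-) and positive for tdTomato. Control animals carried no floxed Grem1 allele, no source used here gives the ages of the animals or says whether animals were pooled, and nothing in the labels states that each library was a separate animal. The p-values below therefore reflect only the spread between libraries, which may be technical.

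Chemokines are small secreted proteins that direct the movement of leukocytes and other cells along concentration gradients, and they act through G protein-coupled receptors on the receiving cell. Atypical chemokine receptors bind chemokines without the usual G protein signal and take them up or transport them, which limits or shapes the gradient. Stromal and fibroblastic cells of bone and connective tissue are known producers of several chemokines, whereas most of the signalling receptors are known mainly from leukocytes.

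The labelled identity of the cells and of the groups was examined first. All 10 stromal markers, among them Col1a1, Dcn, Pdgfra and Lepr, were detected in every library. The level of Lepr differed widely between libraries. It read 18730, 5380, 40594 and 935 normalized counts in controls 1 to 4 and 15785, 13110, 9822, 13845 and 1347 in cKO 1 to 5. Grem1 read 736, 517, 676 and 356 normalized counts in controls 1 to 4 and 83.2, 46.4, 125, 133 and 60.8 in cKO 1 to 5, and it fell by 2.72 ± 0.43 (SE) on the log2 scale (limma, adjusted p = 0.00781). Recovered depth was 44.8 to 53.4 M reads (megareads) in the controls, 76.3 to 87.2 M in cKO 1 to 4 and 43.5 M in cKO 5, so depth and genotype cannot be told apart except through cKO 5. Several libraries stood apart in markers of other cells. The summed counts of 10 endothelial markers were 163538 and 196967 in controls 1 and 3 and 6435 to 11996 in the other 7 libraries. The summed counts of 12 macrophage and 10 neutrophil markers were 116279 and 770862 in cKO 2, against 9850.5 to 24023 and 46499 to 102779.5 in the other cKO libraries and 35495 to 70347 and 131234 to 582174 in the controls. Of 10 skeletal muscle markers, 9 were called higher in cKO, with sums of 335 to 1875 in the controls and 434200.4, 248593, 77384, 683126 and 86504 in cKO 1 to 5. Of 12 cartilage markers, 7 were called lower in cKO, with sums of 1578682 to 4205516 in the controls, 29750.1 to 159532 in cKO 1 to 4 and 1039487 in cKO 5. In sorted bulk samples such as these, fewer cells of a type and less RNA per cell cannot be told apart.

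Ccl11 and Ackr3 were higher and Cx3cl1 was lower in cKO cells. Mean Ccl11 (eotaxin-1) was 20.0 times its control mean and mean Ackr3 2.13 times, while the control mean of Cx3cl1 (fractalkine) was 2.30 times the cKO mean. No signalling receptor passed in limma, edgeR or DESeq2, though the deposited DESeq2 results give Cxcr2 no adjusted p. The test was limma on log2(normalized count + 1) over the 15832 genes that reached 10 normalized counts in at least 4 libraries, with Benjamini-Hochberg adjustment over all of them and a threshold of 0.05. Of the 56 genes 36 entered the test, namely 23 ligands, 9 receptors and all 4 atypical receptors. The 3 called genes are 8.33% of the 36, against 7.48% of all genes tested; 4.61% of all genes were called higher and 2.87% lower. The share of chemokine and receptor genes called was therefore close to the share among all genes. The same 3 genes were those whose control and cKO values did not overlap, again 8.33%, against 11.4% of all genes tested (6.82% higher and 4.6% lower in cKO). The median log2 fold change was -0.74 over the 36 genes and -0.0039 over all genes tested, with 13 of the 36 above 0 and 23 below. At an unadjusted p under 0.05 there were 11 of the 36.

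**Figure D1:**
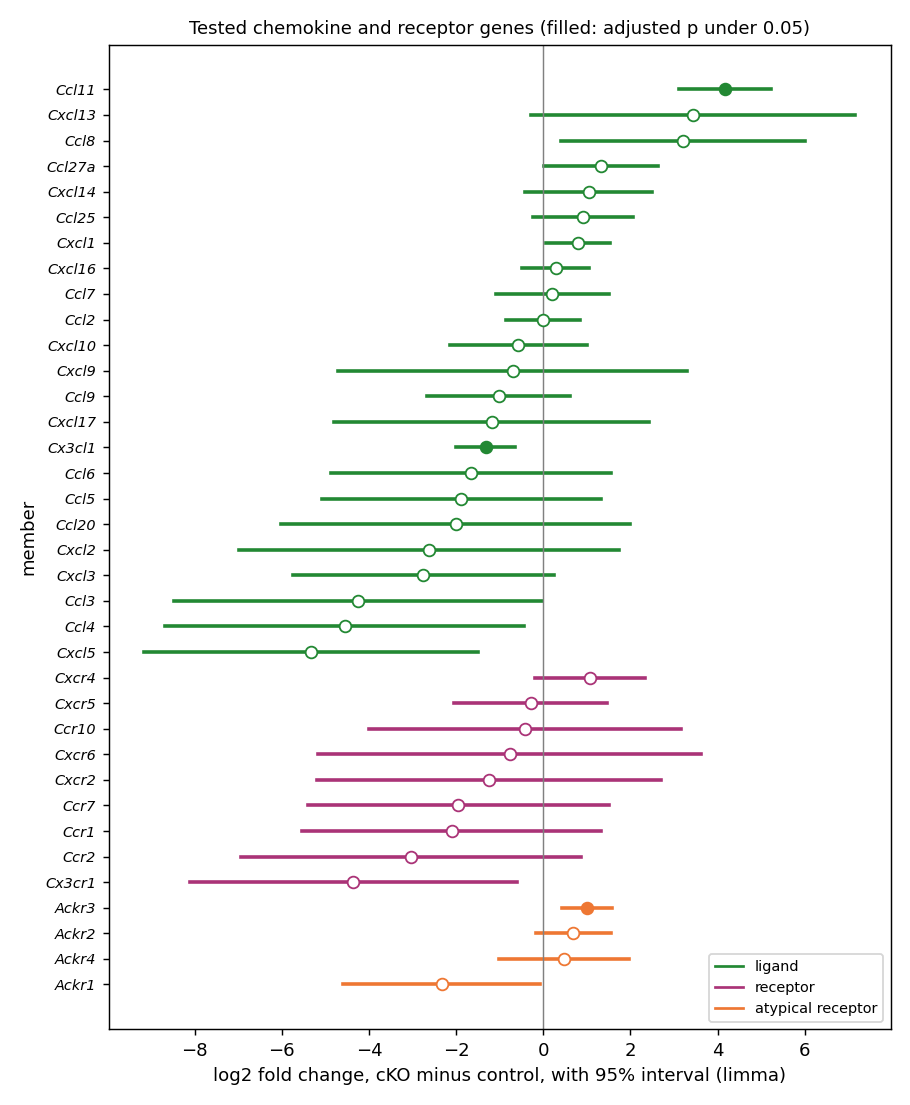
Log2 fold change, cKO minus control, for each of the 36 tested chemokine and receptor genes, with its 95% interval from limma; ligands, receptors and atypical receptors are grouped by colour, and filled points passed an adjusted p of 0.05. Only Ccl11 at 4.17, Ackr3 at 1.01 and Cx3cl1 at -1.32 are filled, and the widest intervals belong to genes with libraries at 0.

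Ccl11 is the ligand of Ccr3 and is best known for attracting eosinophils. It read 522, 279, 233 and 548 normalized counts in controls 1 to 4 and 13630.3, 5799, 4221, 12893 and 3044 in cKO 1 to 5. The lowest knockout library was above the highest control, and cKO 1 and cKO 4 were the highest. Controls averaged 395 ± 163 (SD, n = 4) and knockouts 7918 ± 4982 (SD, n = 5), 20.0 times as much. The log2 fold change was 4.17 ± 0.48 (SE), with a 95% interval of 3.11 to 5.23 (limma, adjusted p = 0.00227). Leaving out any single library gave 3.91 to 4.45, with an adjusted p of 0.00043 to 0.00853. When cKO 5 was compared alone with the 4 controls, which were of like depth, the value was 3.04 with an adjusted p of 0.238; that single library was assumed to vary as the controls do. The muscle markers were also higher in all 5 knockouts than in any control, with the highest sums in cKO 4 and cKO 1, and the cartilage markers were lower; their part in the Ccl11 difference was not tested. Ccr3, its receptor, had 66.0 normalized counts in cKO 2, 4.05 in control 1 and no read in the other 7 libraries. Of the 4 eosinophil markers Epx had no read in any library, Prg2 reached 101 in control 3 and Siglecf 105 in control 2, and the sum of the 4 was 15.4 to 159 in the controls and 0 to 44.4 in cKO.

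Ackr3 (also called Cxcr7) is an atypical receptor that binds and takes up CXC chemokines. It read 12221, 12792, 12527 and 10704 in controls 1 to 4 and 33600.2, 17003, 31891, 31446 and 14650.1 in cKO 1 to 5. All knockouts lay above all controls, with cKO 1, 3 and 4 far above and cKO 2 and 5 nearer to them. Mean Ackr3 was 12061 ± 934 in controls (SD, n = 4) and 25718 ± 9103 in cKO (SD, n = 5). The log2 fold change was 1.01 ± 0.26 (SE), with a 95% interval of 0.43 to 1.59 (limma, adjusted p = 0.0451). This call was close to the threshold: it was kept without cKO 2 (adjusted p = 0.0438) or cKO 5 (adjusted p = 0.00496), and lost without any of the 4 controls or cKO 1, 3 or 4, where the adjusted p ran up to 0.108 and the log2 fold change stayed between 0.89 and 1.04. With no filter on low values the limma call was lost as well (adjusted p = 0.0558). On recovered reads edgeR and DESeq2 both called Ackr3 higher (adjusted p = 0.0488 and 0.00097). In cKO 5 alone against the controls the log2 fold change was 0.28.

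Cx3cl1 is a membrane-bound chemokine that can be shed, and its receptor is Cx3cr1. It read 5175, 6506, 5745 and 4400.2 in controls 1 to 4 and 2077, 1302, 2513, 1634 and 4319 in cKO 1 to 5. The groups did not overlap, but cKO 5 lay just under the lowest control. Mean Cx3cl1 was 5456 ± 890.5 in controls (SD, n = 4) and 2369 ± 1182 in cKO (SD, n = 5). The log2 fold change was -1.32 ± 0.30 (SE), with a 95% interval of -1.99 to -0.64 (limma, adjusted p = 0.0327). The call was kept without cKO 5 (-1.56, adjusted p = 0.0015) and lost without any other library, with values of -1.13 to -1.41 and adjusted p of 0.0553 to 0.0884. It was also lost when edgeR's quasi-likelihood test was run on whole reads (-1.22, adjusted p = 0.058), while DESeq2 on the same reads kept it. For cKO 5 alone the log2 fold change was -0.32. Among the knockouts cKO 5 was also nearest to the controls in depth and in cartilage markers, whose part in the Cx3cl1 values was not tested.

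**Figure D2:**
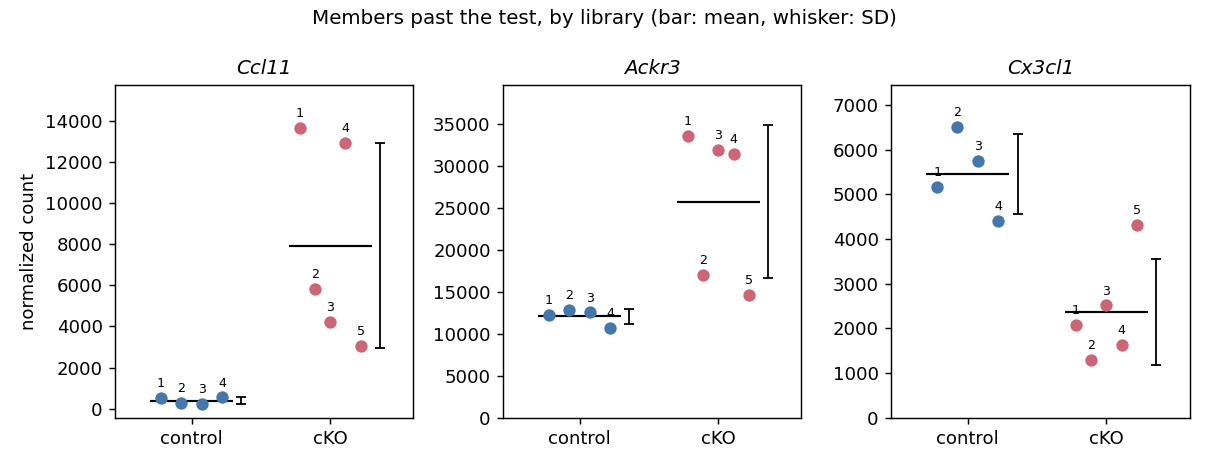
Normalized counts (linear axis) of Ccl11, Ackr3 and Cx3cl1 in each library, with replicate numbers beside the points, the group mean as a bar and the SD as a whisker (n = 4 controls, n = 5 cKO). No control value overlaps the cKO values in any of the 3 panels, and cKO 5 is the knockout library nearest to the controls in each.

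The 250 bases before the transcription start are shown for the called genes that have an entry in the RefSeq promoter table (GRCm38.p6), which are Ackr3 and Cx3cl1, and for Cxcl1, whose promoter carries the NF-kB consensus typical of inflammatory chemokine genes. Of the 56 genes 42 had an entry, with 46 promoters in all. The Ackr3 stretch is chr1:90203730-90203979 on the plus strand, and the capitals mark TATAAA at positions -8 to -3, counted back from the start. The Cx3cl1 stretch is chr8:94771930-94772179 on the plus strand, and the capitals mark GGCGCC, a GC-rich element described for bone morphogenetic protein SMADs, at -35 to -30 and TATAAA at -6 to -1. The Cxcl1 stretch is chr5:90890995-90891244 on the plus strand, and the capitals mark overlapping matches to the NF-kB consensus, the first beginning at -71 and the last ending at -61.
Ackr3: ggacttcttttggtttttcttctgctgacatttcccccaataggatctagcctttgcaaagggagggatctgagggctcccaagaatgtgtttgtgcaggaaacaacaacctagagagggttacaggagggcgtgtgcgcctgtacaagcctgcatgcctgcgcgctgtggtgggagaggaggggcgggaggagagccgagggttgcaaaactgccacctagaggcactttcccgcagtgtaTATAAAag
Cx3cl1: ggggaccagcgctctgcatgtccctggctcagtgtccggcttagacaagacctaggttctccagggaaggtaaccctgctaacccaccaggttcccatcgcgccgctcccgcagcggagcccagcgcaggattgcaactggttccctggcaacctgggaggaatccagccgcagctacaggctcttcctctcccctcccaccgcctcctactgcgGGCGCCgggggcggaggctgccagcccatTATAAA
Cxcl1: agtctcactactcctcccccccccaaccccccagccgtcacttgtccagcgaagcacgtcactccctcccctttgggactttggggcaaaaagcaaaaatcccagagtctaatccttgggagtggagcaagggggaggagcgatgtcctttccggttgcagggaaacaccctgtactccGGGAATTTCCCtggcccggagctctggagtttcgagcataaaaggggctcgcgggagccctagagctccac
Both strands were searched. TATAAA lay in 12 of the 46 promoters (26.1%) and in 12.4% of all 32851 promoters of this length in the table; the NF-kB consensus lay in 9 (19.6%) against 3.9%. TGANTCA, the AP-1 motif, lay in 5 (10.9%) against 6.75%, and GGCGCC in 2 (4.35%) against 9.59%. The NF-kB matches were in Ackr2, Ccl20, Ccl9, Ccr3, Ccr6, Cxcl1, Cxcl10, Cxcl2 and Cxcl3. A match describes these letters only.

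Ccl11 lies in a run of 6 chemokine genes on mouse chromosome 11, in the order Ccl2, Ccl7, Ccl11, Ccl12, Ccl8 and Ccl1, and of its 3 tested neighbours Ccl2 and Ccl7 had differences near 0, while Ccl8 had a wide interval that holds the Ccl11 value. Ccl2 (MCP-1), which attracts monocytes through Ccr2, read 503, 1582, 838 and 1484 in the controls and 1062, 598, 842, 1415 and 1275 in cKO. The groups overlapped throughout, with a log2 fold change of -0.01 ± 0.38 and a 95% interval of -0.85 to 0.83 (limma, adjusted p = 0.994). Ccl7 (MCP-3), another monocyte attractant, read 613, 1382, 228 and 911 in the controls and 1327, 330.5, 908, 445 and 1306 in cKO. Its values also overlapped, with a log2 fold change of 0.20 ± 0.58 and an interval of -1.09 to 1.50 (adjusted p = 0.85). Ccl8, a ligand of Ccr8 in the mouse, was 0 to 113 in the controls and 68.8 to 340.1 in cKO, highest in cKO 1 and cKO 4 as Ccl11 was. Its log2 fold change was 3.20 ± 1.26, with an interval of 0.40 to 6.0 and 1 control at 0, and it did not pass the test (limma, adjusted p = 0.135).

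The ratio of Ccl11 to each neighbour was compared between groups within libraries, a comparison added with the values known. The log2 ratio of Ccl11 to Ccl2 was -2.50 to 0.05 in the controls and 1.26 to 3.68 in cKO, a difference of 4.18 (exact two-sided permutation test, p = 0.00794, the smallest that 4 against 5 libraries can give, and 0.0238 adjusted over 3 ratios). That of Ccl11 to Ccl7 differed by 3.97 (exact permutation p = 0.0159, adjusted 0.0238), and that of Ccl11 to Ccl8 by 0.97 (exact permutation p = 0.413). The ratio rests on Ccl11, which was called, so it repeats that difference relative to Ccl2 and Ccl7. Ccl12 (MCP-5) read 62.2, 0, 12.9 and 109 in the controls and had no read in any cKO library. Its observed control mean was 18.6-fold above a floor of 3 reads in each cKO library. That figure leaves out the spread between controls, 1 of which was also at 0. Without the low-value filter limma gave an adjusted p of 0.0785, and the deposited DESeq2 results give 0.0061. Ccl1 was seen only in cKO 3, at 29.8. Of the 6 genes in the run, 1 was called higher, 3 were tested and not called, Ccl12 was detected only in controls and Ccl1 only in cKO 3.

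**Figure D3:**
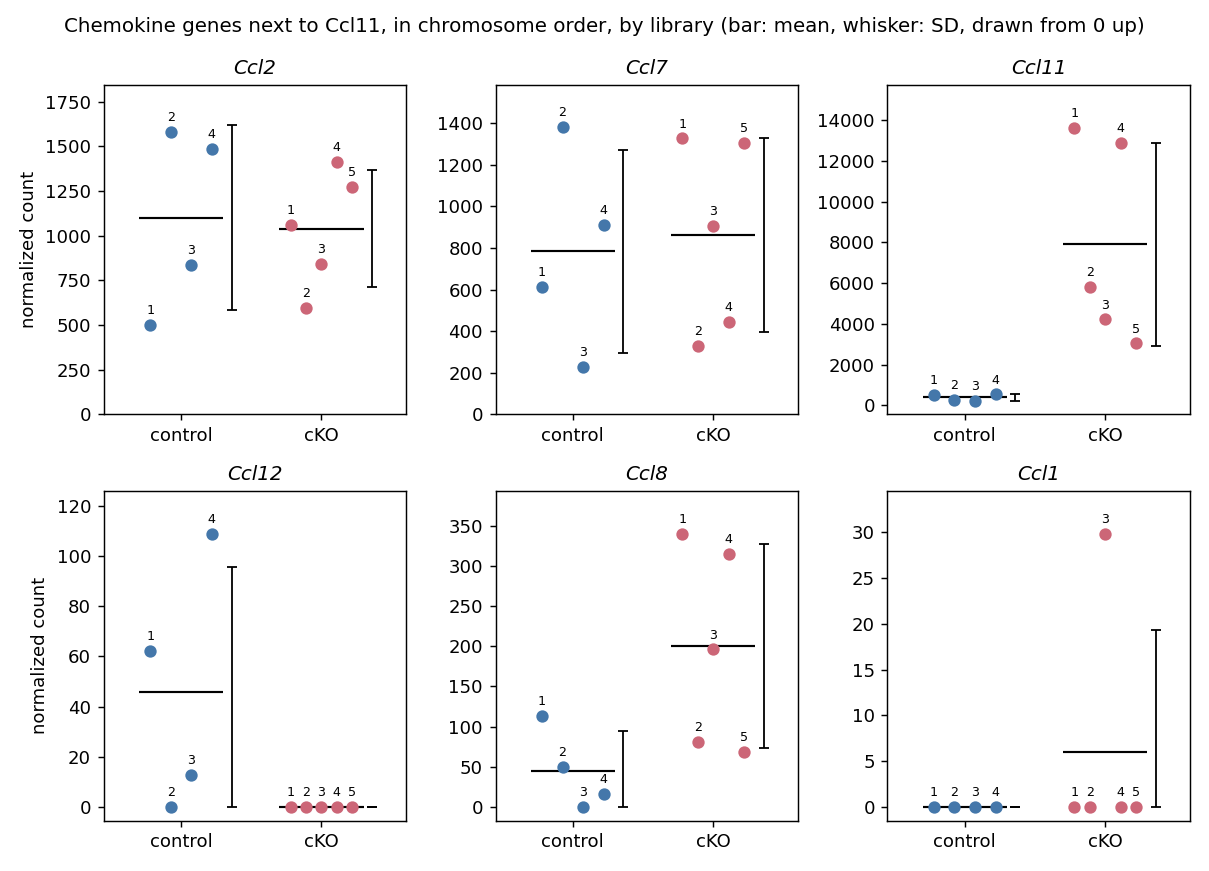
Normalized counts (linear axes, each with its own scale) of Ccl2, Ccl7, Ccl11, Ccl12, Ccl8 and Ccl1 by library, in chromosome order, with the mean as a bar and the SD as a whisker drawn from 0 up (n = 4 controls, n = 5 cKO). Only Ccl11 separates the groups past the test, and Ccl12 has reads in 3 of 4 controls and in no knockout.

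Cxcl14, a ligand made by many epithelial and stromal cells and without a settled signalling receptor, had the highest level of the 23 tested ligands per kilobase of exon in both groups, at 7245 normalized counts per kb in the controls and 10974 in cKO. Its values were 15205, 5601, 29678 and 2462 in the controls and 26286, 20284, 9876, 31592 and 12209 in cKO. The controls alone ran from below the lowest knockout to near the highest, and the log2 fold change was 1.04 ± 0.66, with an interval of -0.42 to 2.50 (limma, adjusted p = 0.338). On the same per-kilobase scale Ccl11 moved from place 9 among the 23 tested ligands in the controls (365) to place 2 in cKO (7317), and Cx3cl1 from place 2 (1388) to place 6 (603). Exon lengths were merged exons of GENCODE M21, and these levels compare genes only within that annotation.

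Cxcl5, Cxcl1, Cxcl2 and Cxcl3 are neutrophil attractants that signal through Cxcr2. Cxcl5 read 897, 3854, 788 and 1772 in the controls and 41.2, 0, 36.6, 20.2 and 2065 in cKO. In cKO 1 to 4 it was far under every control, whereas cKO 5 was above 3 of the 4. The log2 fold change was -5.32 ± 1.72 and did not pass (limma, adjusted p = 0.0834); without cKO 5 it was -6.77 (adjusted p = 0.00456), and cKO 5 alone against the controls gave 0.48. Cxcl1 (KC) read 486, 692, 472 and 534 in the controls and 1161, 478, 1424, 739 and 1288 in cKO. All knockouts but cKO 2 were above the highest control, with a log2 fold change of 0.81 ± 0.33 (adjusted p = 0.149). Cxcl2 ranged from 95.2 to 537 in the controls and from 0 in cKO 3 to 1048 in cKO 2. Cxcl3 ranged from 4.31 to 30.7 in the controls and read 0, 0.67, 0, 0 and 37.0 in cKO 1 to 5, with at most 28 reads in any library. Neither passed the test (limma, adjusted p = 0.423 and 0.218). Without cKO 5 Cxcl3 passed, as Cxcl5 did, at -3.76 (limma, adjusted p = 0.0244). The Cxcl2 log2 fold change was -2.61, with a wide interval of -6.98 to 1.75. Of these 4 ligands of one receptor 1 was above and 3 were below 0 on the fitted scale, with none called when all libraries were used.

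Among the knockouts, several members known from myeloid cells were highest in cKO 2, the library with the highest macrophage and neutrophil sums. Among the controls, control 2 had the highest macrophage and neutrophil sums and the lowest Ccl6 (510.4). Ccl3 and Ccl4 were highest in control 1. Lyz2, at 56428, made up most of the control 2 macrophage sum of 70347. Other macrophage markers differed there: Itgam was the highest of the controls (4384), whereas Adgre1 and Cd14 were the lowest (119 and 982). Ccl6 read 981, 510.4, 1807 and 1031 in the controls and 102, 6468, 12.2, 429.9 and 767 in cKO. Ccl9 read 855, 778, 607 and 519.8 in the controls and 228, 1372, 113, 124 and 909.8 in cKO. For both, cKO 2 lay above every control and cKO 1, 3 and 4 below every control. Ccl6 had a log2 fold change of -1.66 ± 1.44 (adjusted p = 0.49) and Ccl9 of -1.03 ± 0.73 (adjusted p = 0.403). Ccl3 and Ccl4 (MIP-1α and MIP-1β), which attract macrophages and T cells, were 168 to 827 and 168 to 715 in the controls. In cKO they had no read in cKO 1 and 3 and reached 791 and 337 in cKO 2, with log2 fold changes of -4.25 ± 1.90 (adjusted p = 0.183) and -4.55 ± 1.85 (adjusted p = 0.147). Without cKO 5 Ccl4 passed the test, at an adjusted p of 0.0485. In cKO 2 the macrophage marker Lyz2 read 100129 and the complement genes C1qa and C1qb 217 and 163, whereas C1qa and C1qb had no read in cKO 1, 3, 4 and 5.

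Of the 36 tested genes 9 had their highest value in cKO 2 (25.0%, against 14.4% of all genes tested), and 10 had no read in cKO 3 (27.8%, against 4.47%). The cKO 3 library had the lowest macrophage, neutrophil and common leukocyte sums of the 9, at 9850.5, 46499 and 2141. The part of leukocyte RNA in these member values was not tested.

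The remaining tested ligands did not pass either. Cxcl16, which exists in membrane-bound and shed forms and binds Cxcr6, read 908, 369.7, 1107 and 402 in the controls and 622, 890.4, 868, 676 and 768 in cKO, all knockouts lying within the control range. Its log2 fold change was 0.28 ± 0.35, with an interval of -0.49 to 1.06 (limma, adjusted p = 0.632). The interferon-inducible Cxcl9 and Cxcl10, ligands of Cxcr3, had log2 fold changes of -0.70 and -0.57, with ranges over all libraries of 0 to 560.1 and 23.8 to 298. Cxcl13, the ligand of Cxcr5, was at 3.43 (0 to 263 in controls, 37.0 to 359.7 in cKO, adjusted p = 0.217). Ccl25 and Ccl27a were at 0.90 and 1.32, with ranges of 37.8 to 251 and 19.4 to 148. Ccl5, Ccl20 and Cxcl17 were at -1.88, -2.01 and -1.18, with ranges of 0 to 272, 0 to 116 and 0 to 38.3.

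Among the 9 tested signalling receptors limma called none, with 1 at an unadjusted p under 0.05. Both edgeR and DESeq2 called 0, and the deposited DESeq2 results give Cxcr2 no adjusted p. On the fitted log2(normalized count + 1) scale 8 had a log2 fold change under 0, and the median was -1.24. In arithmetic means Ccr1, Cxcr2 and Cxcr6 were higher in cKO, at 1.06, 2.03 and 1.11 times the control mean. Those of Ccr2, Ccr7, Ccr10, Cx3cr1 and Cxcr5 were lower. Cxcr4, a receptor known for the homing and retention of blood cells in marrow, was the exception in sign on the fitted scale. It read 640.4, 166, 622 and 250.1 in the controls and 667, 1788, 1145, 582 and 309 in cKO. The groups overlapped, with cKO 2 the highest, and the log2 fold change was 1.07 ± 0.57, with an interval of -0.19 to 2.34 (limma, adjusted p = 0.254). Per kilobase of exon Cxcr4 and Ccr1 held the first 2 places among receptors in both groups, with Ccr1 first in the controls (248 against 232) and Cxcr4 first in cKO (497 against 263); the SDs exceeded these gaps.

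The receptors Ccr1, Ccr2, Cxcr2 and Cx3cr1, known from monocytes and neutrophils, were highest among the knockouts in cKO 2. Control 2 had the highest leukocyte sums of the controls. There Ccr2 was at its highest control value (1297), and Ccr1 and Cxcr2 were at their lowest (361 and 121). Cx3cr1 was highest of all in control 3, at 528. Ccr1, which binds Ccl3 and other ligands, read 557, 361, 1148 and 745 in the controls and 134, 2981, 2.71, 98.3 and 516 in cKO. Ccr2, the receptor of Ccl2, read 674, 1297, 764 and 421 in the controls and 203, 2392, 0, 118 and 95.2 in cKO. In both, cKO 2 exceeded every control and cKO 1, 3 and 4 were below every control. The log2 fold changes were -2.10 ± 1.54 for Ccr1 (adjusted p = 0.413) and -3.03 ± 1.75 for Ccr2 (adjusted p = 0.294). Cx3cr1, the receptor of the ligand that fell, was 157 to 528 in the controls, had no read in cKO 3 and 4 and read 458 in cKO 2. Its log2 fold change was -4.35 ± 1.68 (adjusted p = 0.13), and without cKO 2 it was -5.63 (adjusted p = 0.0493). Cxcr2 was 121 to 416 in the controls and 0 to 2247 in cKO, and Ccr7, Cxcr5, Cxcr6 and Ccr10 had log2 fold changes of -1.95, -0.29, -0.77 and -0.43 with highest values of 502, 146, 176 and 48.6.

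**Figure D4:**
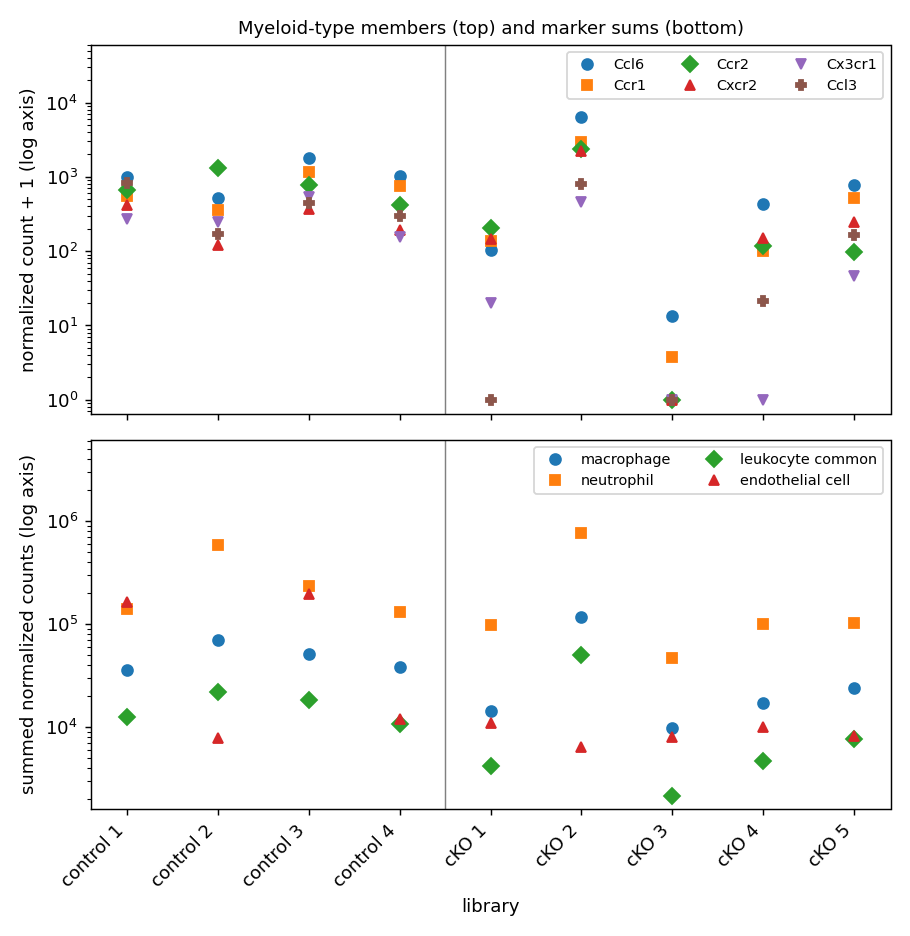
Top, normalized counts plus 1 (log axis) of Ccl6, Ccr1, Ccr2, Cxcr2, Cx3cr1 and Ccl3 in each library; bottom, summed normalized counts (log axis) of the macrophage, neutrophil, common leukocyte and endothelial markers. All 6 genes have their highest cKO value in cKO 2, at 458 to 6468, where the macrophage, neutrophil and leukocyte sums are also highest, and cKO 3 is lowest in each of those 3 sums.

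The other 3 atypical receptors did not pass the test. Ackr1 (DARC), known from venular endothelium and red cell precursors, read 6926, 406, 9563 and 478 in controls 1 to 4 and 595, 171, 154, 599.7 and 799 in cKO 1 to 5. Controls 1 and 3 stood far above all other libraries, and controls 2 and 4 lay among the knockouts. The endothelial markers were high in the same controls: Pecam1 read 38993 and 47308 in controls 1 and 3 and 233 to 2627 elsewhere. The log2 fold change was -2.33 ± 1.02 (limma, adjusted p = 0.174), DESeq2 on recovered reads called it lower (-3.23, adjusted p = 0.0109), and without controls 1 and 3 it was -0.23 (adjusted p = 0.88). Ackr2, a scavenger of inflammatory CC chemokines, read 1852, 1742, 1556 and 1575 in the controls and 4755, 1141, 3188, 4547 and 1839 in cKO. It was high in cKO 1, 3 and 4, the libraries highest for Ackr3, and lowest in cKO 2, with a log2 fold change of 0.69 ± 0.39 (adjusted p = 0.283). Ackr4, a scavenger of CCL19, CCL21 and CCL25, read 2805, 1912, 3681 and 408 in the controls and 2640.2, 3811, 3499, 2849 and 717 in cKO, with overlapping groups and a log2 fold change of 0.48 ± 0.67 (adjusted p = 0.678).

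**Figure D5:**
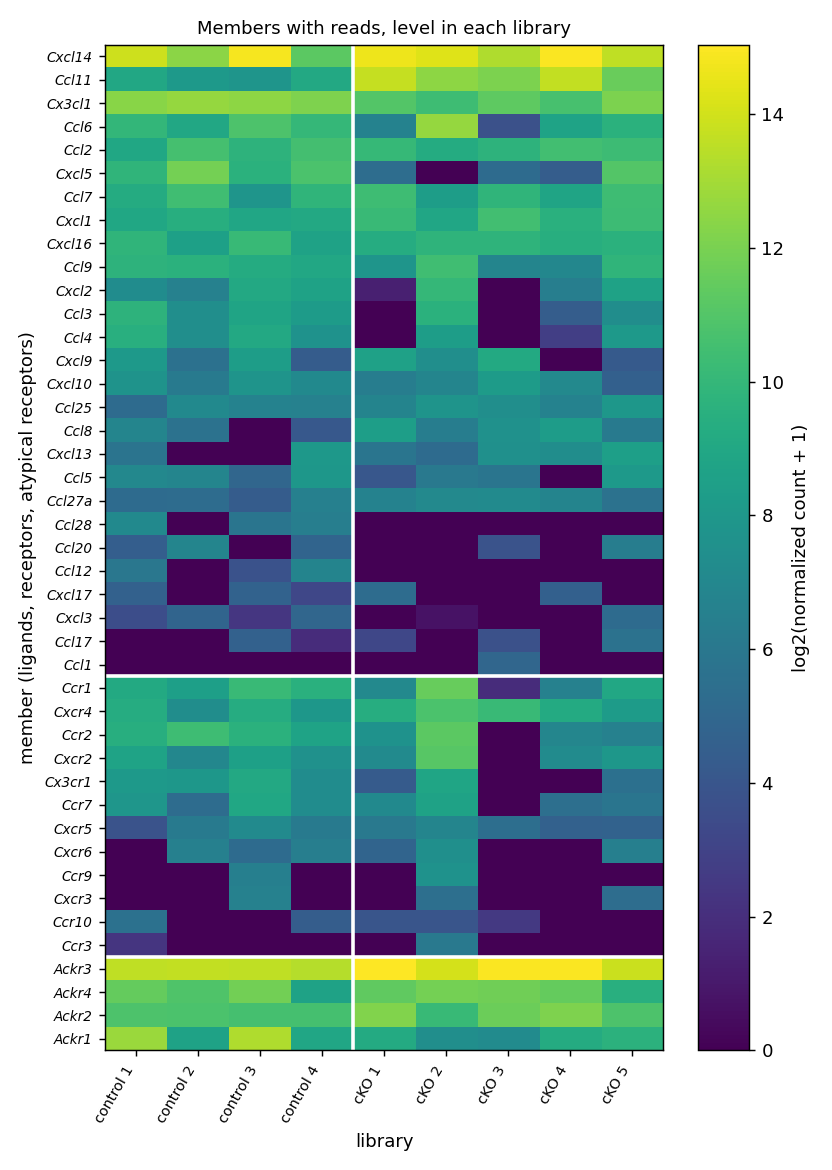
Log2(normalized count + 1) of the 43 chemokine and receptor genes shown, out of 44 with a read in at least 1 library (rows, grouped as ligands, receptors and atypical receptors) in the 9 libraries (columns); the colour scale runs from no read to the highest level, and values are not per length. Cxcl14 and Ackr3 are high in every library, Ccl11 is high in all 5 knockouts, and cKO 3 has the most genes without a read.

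Of the 20 untested genes 12 had no read in any library: Ccl19, Ccl21a, Ccl21b, Ccl21d, Ccl22, Ccl24, Ccl26, Cxcl15, Ccr4, Ccr6, Ccr8 and Cxcr1. A count of 0 allows up to 3 reads per library, or 0.0344 to 0.0689 reads per M reads, for counting error alone. For the near-identical Ccl21 copies, reads may also have gone uncounted. Ccl24 and Ccl26, the other eotaxin genes, were among these, so Ccl11 was the only eotaxin detected. The other 8 had reads in too few libraries to enter the test. Ccl28, a mucosal ligand of Ccr3 and Ccr10, read 141, 0, 56.0 and 86.6 in the controls and had no read in the 5 knockouts. Its observed control mean was 28.6-fold above the floor of 3 reads in each cKO library, a figure that leaves out the spread between controls. With no filter, limma gave it an adjusted p of 0.063, and the deposited DESeq2 results give 0.00084. Ccl17, Ccr9 and Cxcr3 were scattered, with highest values of 48.9, 198 and 96.9 and no adjusted p under 0.05 without the filter; Ccl12, Ccl1 and Ccr3 are given above.

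Other genes of chemokine biology were read from the same fit. Of 8 tested ligands and receptors outside the symbol rule, 1 was higher and 1 lower (25.0%, against 7.48% of all genes tested), with a median log2 fold change of -0.64. Rarres2, which encodes the chemoattractant chemerin, rose 3.80-fold on the fitted log2(normalized count + 1) scale (log2 fold change 1.93 ± 0.37, limma, adjusted p = 0.0172). Among the single libraries left out, its call was lost only without cKO 4 (adjusted p = 0.0502); for cKO 5 alone against the controls it was 0.64 (adjusted p = 0.701). Mif, a cytokine that binds Cd74 and Cxcr4, fell by 1.28 ± 0.31 on the log2 scale (adjusted p = 0.0357). Of 12 tested genes that process or present chemokines, 1 was higher and 1 lower (16.7%, against the same 7.48%), with a median of -0.35. Dpp4, a peptidase that trims the amino terminus of chemokines including CCL11, rose 12.5-fold on the same scale (3.64 ± 0.43, adjusted p = 0.00237); its arithmetic means were 313 ± 94.9 in controls (SD, n = 4) and 4414 ± 2656 in cKO (SD, n = 5). The Dpp4 call was kept without each of the 9 libraries, with adjusted p of 0.00044 to 0.00955, and lost for cKO 5 alone (2.62, adjusted p = 0.185). Ext1, a heparan sulfate polymerase, fell by 0.83 ± 0.21 (adjusted p = 0.0453). Leaving out single libraries, the Mif call was kept only without control 1 or cKO 5 and the Ext1 call only without cKO 5, with adjusted p up to 0.0958 and 0.11. Neither was called by edgeR (adjusted p = 0.0549 and 0.0686), while DESeq2 called both (adjusted p = 0.0028 and 0.0133). For cKO 5 alone the log2 fold changes of Mif and Ext1 were -0.34 and -0.094.

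Signal transducers and upstream regulators had few calls. Of 28 tested transducers of chemokine receptors 2 were lower and 0 higher (1 higher at an unadjusted p under 0.05, and 1 called higher by edgeR and by DESeq2), with a median of -0.45: Rgs16, a brake on G protein signalling, fell by 1.91 ± 0.45 (limma, adjusted p = 0.0337), and Ptk2b, the kinase PYK2, fell by 1.25 ± 0.32 (adjusted p = 0.0439). Of 23 tested NF-kB, cytokine and interferon regulators of chemokine genes 1 was lower and 0 higher (1 higher at an unadjusted p under 0.05, 0 called by edgeR in that direction and 1 by DESeq2), with a median of -0.30: Stat3 fell by 0.47 ± 0.11 (adjusted p = 0.0375). DESeq2 made all 3 calls (adjusted p = 0.0032, 0.0076 and 0.0014) and edgeR made none (adjusted p = 0.0587, 0.0593 and 0.0525). Each was lost in most fits without a single library. Rgs16 was called only without control 2 or cKO 5, Ptk2b only without cKO 2 or cKO 5 and Stat3 only without cKO 5. In these limma fits the adjusted p ran up to 0.0889, 0.103 and 0.0962. For cKO 5 alone the 3 values were -0.55, -0.65 and -0.24, none called. These counts are 7.14% and 4.35% of the respective lists, against 7.48% of all genes tested. Nfkb1, Il4ra and Il13ra1, the last 2 being subunits of receptors for cytokines known to induce Ccl11, had values of -0.74, -0.47 and -1.23 and did not pass (adjusted p = 0.0612, 0.0858 and 0.0705). They were picked after their values were seen. At an unadjusted p under 0.05, 5 genes of this list were lower and 1, Ifngr1, was higher. Ifngr1 was at 0.86, Rela at 0.38 and Stat6 at -0.17, none called (limma, adjusted p = 0.0888, 0.263 and 0.49).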

How the data were processed

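The 9 libraries were made with an Illumina TruSeq kit from polyadenylated RNA of sorted cells and read as paired ends of 150 bases, per the labels' protocols. Groups and replicate numbers come from the titles. The deposited expression matrix holds normalized counts, a signal in which each library's gene counts are scaled by 1 factor. The deposited results table holds log2 fold changes, a test statistic (score) and p-values. Here it served to choose the genes by symbol and for the deposited adjusted p of Ccl12, Ccl28 and Cxcr2 (none given for the last). Entrez IDs were matched to symbols through an NCBI gene table, and 25275 of 27179 matched. STAR, featureCounts, DESeq2 and the build mm39 are named in the submitters' processing notes. Versions, annotation and strand setting are not stated in these sources. Reads of near-identical or overlapping genes (the Ccl21 copies, for example) may therefore be divided between them or left uncounted.

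Dividing by a library's smallest nonzero value gave back whole reads (tolerance 0.01) for at least 99.99% of its values above 0, 43.5 to 87.2 M reads per library. Groups were compared in R 4.3.3 by limma 3.58.1 (eBayes with trend, two-sided) on log2(normalized count + 1) for genes with at least 10 in at least 4 libraries; errors after ± in log2 values are SE. On recovered reads edgeR 4.0.16 called 786 genes and DESeq2 1.42.0 called 2546, against 1184 in the main test. The floors cover counting error only, whereas the limma intervals rest on the spread between libraries. The scripts were tested on simulated data.

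Some genes that fit the symbol rule are not reported here. The chemokine genes and all gene lists were chosen with earlier results of these data known. Values in every library are given for called or non-overlapping genes, the Ackr genes and Cxcr4. They are also given for tested genes with a mean of at least 500. In each further list up to 4 called genes per direction are named. A few uncalled ones (Nfkb1, Il4ra, Il13ra1, Ifngr1, Rela, Stat6) were named after their values were seen. The cartilage list and the Ccl11 ratios were added with the values known. The promoter table is of GRCm38.p6, not mm39, and its coordinates are used only for the printed sequences. Alternatives tried were pseudocounts of 0.5 and 5, no filter, a filter of 50, TMM scaling, edgeR, DESeq2, robust eBayes, thinning to the smallest library, a replicate block, and leaving out libraries.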

Additional observations from a re-analysis of the deposited data

Results flagged for a closer look

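In 10 of 72 groups of chemokine or receptor values (36 genes in 2 groups of libraries, 13.9%) 1 library stood apart. The gap between the highest or lowest library and its nearest neighbour took up most of the group's range. The limit on that gap would flag about 1 in 20 groups of normally distributed values. It was applied to normalized counts without a log, which can be skewed to high values, so that rate need not hold here. Genes of one library are also not independent. All 10 were the highest library of the cKO group. In cKO 2 these were Ccl6 at 6468 normalized counts, Ccr1 at 2981, Ccr2 at 2392, Cxcr2 at 2247, Ccl3 at 791 and Cx3cr1 at 458. The macrophage and neutrophil marker sums of cKO 2 were 116279 and 770862, against at most 24023 and 102779.5 in the other cKO libraries; their part in these values was not tested. In cKO 5 the isolated values were Cxcl5 at 2065, Ccl5 at 272, Ccl20 at 82.0 and Cxcl3 at 37.0. The cKO 5 library was also the knockout with the fewest reads, 43.5 M, and the highest cartilage marker sum, 1039487, whose part was not tested.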

How the results depend on the processing

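Over 21 alternatives 747 values of the 36 genes were recomputed, of which 678 kept their sign and side of the threshold. Pseudocounts, TMM scaling, robust eBayes, thinning and a filter of 50 changed no call of a chemokine or receptor gene. The count of all genes called was 1184; it was 786 in edgeR, 2546 in DESeq2, 377 to 3562 leaving out single libraries, 338 without controls 1 and 3 and 83 with cKO 5 alone against the controls. The chemokine and receptor genes called higher, 2, became 1 with no filter, 1 without controls 1 and 3, 0 for cKO 5 alone, and 1 to 2 leaving out single libraries. Those called lower, 1, became 0 in edgeR, 2 in DESeq2, 0 without controls 1 and 3, 0 for cKO 5 alone, and 0 to 4 leaving out single libraries (4 without cKO 5: Cx3cl1, Cxcl5, Cxcl3 and Ccl4). Where the count was 0, genes at an unadjusted p under 0.05 were 2 lower in edgeR, 2 lower in limma without controls 1 and 3, and 2 higher and 3 lower in limma for cKO 5 alone. DESeq2 gave no adjusted p for 5 of the 36, which were left out.

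Replicate numbers did not pair the libraries (correlations of same-numbered deviations of 0.070, 0.017, -0.006 and -0.011). With a replicate block over replicates 1 to 4, 2702 genes were called, with 2 of the 36 higher and 2 lower; without the block the same 8 libraries gave 3562, 2 and 4. Ccr10 turned to 0.10 under the block.

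The sign turned for 41 values, none of them called in either fit. Log2 fold changes for cKO 5 alone were Ackr4 -1.23, Ccl2 0.35, Ccl20 2.32, Ccl5 1.40, Ccl9 0.43, Cxcl2 0.76, Cxcl3 1.30, Cxcl5 0.48, Cxcr2 0.010, Cxcr4 -0.21 and Cxcr6 1.97. In edgeR they were Ccl6 0.50, Ccr1 0.068, Cxcl2 0.031, Cxcl9 0.44, Cxcr2 1.00 and Cxcr6 0.13, and in DESeq2 Ccr1 0.087, Cxcl2 0.047, Cxcl9 0.46 and Cxcr6 0.15. Without controls 1 and 3 they were Ccl7 -0.59, Cxcl17 0.36 and Cxcl9 0.92. Leaving out single libraries gave Ackr4 -0.20 to 0.91, Ccl2 -0.34 to 0.22, Ccl7 -0.30 to 0.57, Ccr10 -1.27 to 0.61, Cxcl9 -1.51 to 0.77, Cxcr2 -2.35 to 0.43, Cxcr5 -0.95 to 0.16 and Cxcr6 -2.29 to 0.17. The cause was not tested. Counts of a few reads limit the genes with libraries at 0.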
